A study of Mus musculus with 37 samples.

Results

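Bdnf (brain-derived neurotrophic factor), 1 other neurotrophin, 4 of their receptors and a secreted granule protein were followed across 8 groups of mice. The 7 genes are Bdnf and Ntf3, which encode ligands, Ntrk2, Ntrk3, Ngfr and Sort1, which encode receptors, and Vgf, which encodes a precursor of secreted peptides. They are the rows of the count table whose Ensembl identifiers map to these symbols, 7 of 56980 genes.

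The study sequenced polyadenylated RNA from brain of male wild type C57BL/6J mice, and its title names the medial prefrontal cortex. Antibiotics were given by mouth or the mice stayed on water, and each mouse then received either saline or morphine under the skin, at 15 mg/kg, for 5 days. Adolescents started on postnatal day 25 and adults on postnatal day 55. The agents in the antibiotic mixture, the age at tissue collection and the time after the last injection are not named in the labels. With the 2 near-empty libraries left out, there were 5 libraries of adolescents on water with saline, 5 of adolescents on water with morphine, 3 of adolescents on antibiotics with saline and 5 of adolescents on antibiotics with morphine. The adults gave 3 libraries on water with saline, 5 on water with morphine, 5 on antibiotics with saline and 4 on antibiotics with morphine. The library names carry a number within each group, and nothing in the labels says that each library is a separate animal, so the p-values measure the spread between these libraries.

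Neurotrophins are secreted growth factors that keep neurons alive and adjust their synapses. Each binds a Trk receptor tyrosine kinase, with brain-derived neurotrophic factor acting on TrkB and neurotrophin-3 mainly on TrkC, and Trk receptors signal through MAP kinase, phosphatidylinositol kinase and phospholipase C. Their unprocessed precursors bind the p75 receptor together with sortilin. In cortex, Bdnf is made mainly by excitatory neurons and is transcribed from several start sites, some of which respond to neuronal activity, so it is often measured after drug exposure.

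Bdnf, identifier ENSMUSG00000048482, lies at chr2:109674700-109727007 on the plus strand of mm10 in the GENCODE M21 annotation. RefSeq promoter windows of the GRCm38.p6 build, each reaching from 250 bases before a start site to 50 after it, were found for 4 of the 7 genes. There were 7 windows for Bdnf, 2 for Ntf3, 1 for Ngfr and 1 for Ntrk2. Bdnf is the 1 member that was called between treatments here, so the 250 bases upstream of its first start site (chr2:109674450-109674699, plus strand) and of the third of its start sites (chr2:109692186-109692435, plus strand) are shown, with the capitals marking the 5 letters CGTCA.
Bdnf window 1: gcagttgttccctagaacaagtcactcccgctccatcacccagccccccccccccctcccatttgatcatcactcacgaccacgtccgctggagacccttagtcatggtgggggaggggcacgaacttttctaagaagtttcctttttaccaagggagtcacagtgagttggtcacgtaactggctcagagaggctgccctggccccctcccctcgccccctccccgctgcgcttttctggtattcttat
Bdnf window 3: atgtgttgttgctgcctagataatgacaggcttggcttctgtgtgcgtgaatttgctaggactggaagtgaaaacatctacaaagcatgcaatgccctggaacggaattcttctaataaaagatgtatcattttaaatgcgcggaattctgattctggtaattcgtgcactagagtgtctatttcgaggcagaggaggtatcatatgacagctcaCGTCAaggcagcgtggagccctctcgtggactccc
The letters CGTCA are the reverse complement of TGACG, the shorter form of the cAMP response element TGACGTCA, to which CREB binds. Both strands were searched. The full element was in 1.79% of the 32851 mouse windows and in 0 of the 11 windows of these genes. The shorter form was in 20.8% of all windows and, among these genes, in Bdnf window 3, where its match starts 35 bases before the start site. The E-box CACGTG was in 7.15% of all windows and in 1 window of Ntf3. A gene count adds up all start sites, so the data do not say which of the 7 Bdnf windows was in use.

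The other genes lie elsewhere in mm10. Ntf3 (ENSMUSG00000049107) is at chr6:126101412-126166910 on the minus strand. Ntrk2 (ENSMUSG00000055254) is at chr13:58806569-59133970 on the plus strand and Ntrk3 (ENSMUSG00000059146) at chr7:78175959-78738012 on the minus strand. Ngfr (ENSMUSG00000000120) is at chr11:95568818-95587735 on the minus strand, Sort1 (ENSMUSG00000068747) at chr3:108284082-108361511 on the plus strand, and Vgf (ENSMUSG00000037428) at chr5:137026392-137033351 on the plus strand. Antisense transcripts overlap 2 of them. Exons of Gm45346 share 896 bases with Bdnf, and its counts were 2.51% to 8.22% of those of Bdnf. Exons of Gm12523 share 338 bases with Sort1, and its counts were 3.49% to 6.4% of those of Sort1. No source used here says whether reads were counted by strand, so reads of these pairs may not be fully separated.

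The 35 libraries held 10630727 to 31560468 counts each, with a median of 15910823. Markers of excitatory cortical neurons summed to 4959 to 6757 CPM (counts scaled to a common library total of 1000000) in 34 of them. The library adolescent water saline 1 stood apart, with a sum of 3773 CPM for those markers, 1136 CPM for striatal neuron markers against 123 to 181 in the other libraries, and 18572 CPM for mature oligodendrocyte markers against 1153 to 6174. In 7 adolescent libraries and no adult library, the pancreatic islet genes Ins1, Ins2, Gcg and Iapp had more than 20 counts together. Those 7 were water saline 5, water morphine 3 and 5, antibiotics saline 1, and antibiotics morphine 1, 3 and 4. Results are given with and without these libraries where that changes a call. These are bulk samples, in which fewer cells of a type and less RNA per cell cannot be told apart.

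Counts were scaled to CPM with TMM-adjusted totals, and levels are compared between genes only per kilobase of annotated exon. On that scale, Vgf had the highest level of the 7, at 100 CPM per kilobase (67.3 to 121 over 35 libraries), followed by Sort1 at 75.1 (57.1 to 83.9) and Ntrk2 at 32.7 (29.3 to 35.5). Ntrk3 had 5.81 CPM per kilobase (4.91 to 6.99) and Bdnf 5.34 (3.45 to 6.99), and the ranges of these 2 genes overlapped. The length is the union of all annotated exons, 30.2 kilobases for Ntrk3, 19.3 for Ntrk2, 7.57 for Sort1 and 6.22 for Bdnf. The order of the genes depends on that choice of length. Ntf3 had 0.483 CPM per kilobase and Ngfr 0.24, from 3 to 53 and from 4 to 46 counts per library. Ntf5, which encodes another TrkB ligand, had a mean of 0.0933 CPM per kilobase, with any count in 32 of 35 libraries. Each library held 7039 to 19122 counts of Ntrk2 and 349 to 898 of Bdnf. Full-length and truncated TrkB come from the same gene and are not separated by these counts.

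Bdnf, the ligand of TrkB, was lower in morphine-treated adolescents on antibiotics than in morphine-treated adolescents on water. In the antibiotics group, Bdnf was at 25 CPM in library 1, 24.8 in library 2, 24.8 in library 3, 25.5 in library 4 and 27.8 in library 5. In the water group with morphine it was at 39.3, 39.2, 42.5, 35.9 and 32 CPM in libraries 1 to 5. All 5 antibiotics libraries lay below all 5 water libraries, and 4.35% of all genes likewise had no overlap between these groups. The mean was 25.6 CPM ± 1.28 (SD, n = 5) against 37.8 ± 3.99 (SD, n = 5). The log2 fold change was -0.56 ± 0.13 (SE), with an adjusted p of 0.0281 by the edgeR quasi-likelihood test with Benjamini-Hochberg adjustment over 19332 genes. It was the single member of 7 that passed, in a comparison in which 0.626% of all genes were called lower and 1.11% were called in either direction.

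That call was close to the threshold in the fit of all groups. In the leave-one-out fits, 4 of 10 called Bdnf, and the adjusted p was 0.0583 to 0.0867 without water morphine 1, 2 or 3 and 0.0613 to 0.0944 without antibiotics morphine 1, 2 or 3. The fold change kept its size, between -0.51 and -0.55, in those 6 fits. Without the library adolescent water saline 1 the adjusted p was 0.000312, and fitting these 2 groups alone in edgeR gave 0.000134. With no filter on low counts it was 0.0856. Without the 7 libraries with islet counts, which left 2 antibiotics and 3 water libraries, Bdnf had a log2 fold change of -0.54 and an adjusted p of 0.536, and 2 of all genes were called. Within the antibiotics group, the 3 libraries with islet counts had 24.8 to 25.5 CPM of Bdnf, and the other 2 had 24.8 and 27.8.

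The remaining groups of adolescents had overlapping Bdnf levels. On water with saline, Bdnf was at 21.5, 41.5, 42.6, 43.5 and 37.1 CPM in libraries 1 to 5, and the low value belongs to the library that stood apart in its markers. On antibiotics with saline it was at 35, 35.4 and 39 CPM. Saline-treated adolescents on antibiotics thus overlapped with those on water, with a log2 fold change of -0.02 ± 0.15 (SE) and an adjusted p of 0.979 by edgeR, and 0 of 7 members were called, against 0.0103% of all genes. At an unadjusted p under 0.05 there were 0 members as well, and DESeq2 called 0. The fold change of -0.02 includes the 21.5 CPM of adolescent water saline 1 and leans in part on that library. By group median, Bdnf was at 41.5 CPM on water with saline and at 35.4 on antibiotics with saline.

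Among adolescents on antibiotics, Bdnf was lower with morphine than with saline in every library, 24.8 to 27.8 against 35 to 39 CPM, and the groups did not overlap, as was so for 8.54% of all genes. The log2 fold change was -0.51 ± 0.15 (SE), and this did not pass over all genes, with an unadjusted p of 0.00167 and an adjusted p of 0.279 by edgeR. With edgeR 0 of 7 members were called there, against 0.0466% of all genes, and Bdnf was the 1 member with an unadjusted p under 0.05. Bdnf did pass with an adjusted p of 0.0165 when adolescent water saline 1 was left out, and of 0.000218 when only the 2 compared groups were fitted. DESeq2 gave 0.0986, none of the 8 leave-one-out fits of the compared libraries called it (adjusted p of 0.332 to 0.874), and without the 7 libraries with islet counts the adjusted p was 1, with a log2 fold change of -0.50.

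In adolescents on water, morphine and saline gave overlapping Bdnf levels. The log2 fold change was 0.03 ± 0.13 (SE) with an adjusted p of 0.961 by edgeR, and it was -0.12 without adolescent water saline 1. edgeR and DESeq2 each called 0 of 7 members in this comparison, against 0.331% of all genes in edgeR, while 2 members, Ntrk2 and Ntf3, had an unadjusted p under 0.05. The difference between the 2 morphine effects in adolescents, on antibiotics minus on water, was -0.54 ± 0.20 (SE) on the log2 scale for Bdnf. Its unadjusted p was 0.00967 and its adjusted p 0.633 by edgeR, so a different response to morphine on antibiotics was not shown for Bdnf over all genes. In edgeR and in DESeq2, 0 of 7 members passed, against 0.0621% of all genes in edgeR. The -0.54 includes adolescent water saline 1, and leaving that library out moved the morphine difference on water from 0.03 to -0.12.

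Adult Bdnf levels lay closer together. Adults on water had 31.9, 38.5 and 31.9 CPM with saline and 35.6, 35.3, 31.6, 40.5 and 30 CPM with morphine. On antibiotics they had 24.2, 30.1, 32.7, 35.9 and 25.6 CPM with saline and 32.8, 28.5, 30.8 and 34.1 CPM with morphine. Every pair of adult groups that differ in 1 treatment overlapped. The antibiotics difference in adults was -0.20 ± 0.15 (SE) on the log2 scale with saline and -0.13 ± 0.14 with morphine, with adjusted p values of 0.779 and 0.77 by edgeR. The morphine difference was 0.02 ± 0.15 on water and 0.09 ± 0.14 on antibiotics, with adjusted p values of 1 and 0.918. edgeR and DESeq2 each called 0 of 7 members in these 4 adult comparisons, and Vgf in morphine against saline on antibiotics was the 1 case with an unadjusted p under 0.05. In edgeR, 0.031% (antibiotics with saline), 1.92% (antibiotics with morphine), 0% (morphine on water) and 0% (morphine on antibiotics) of all genes were called.

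**Figure D1:**
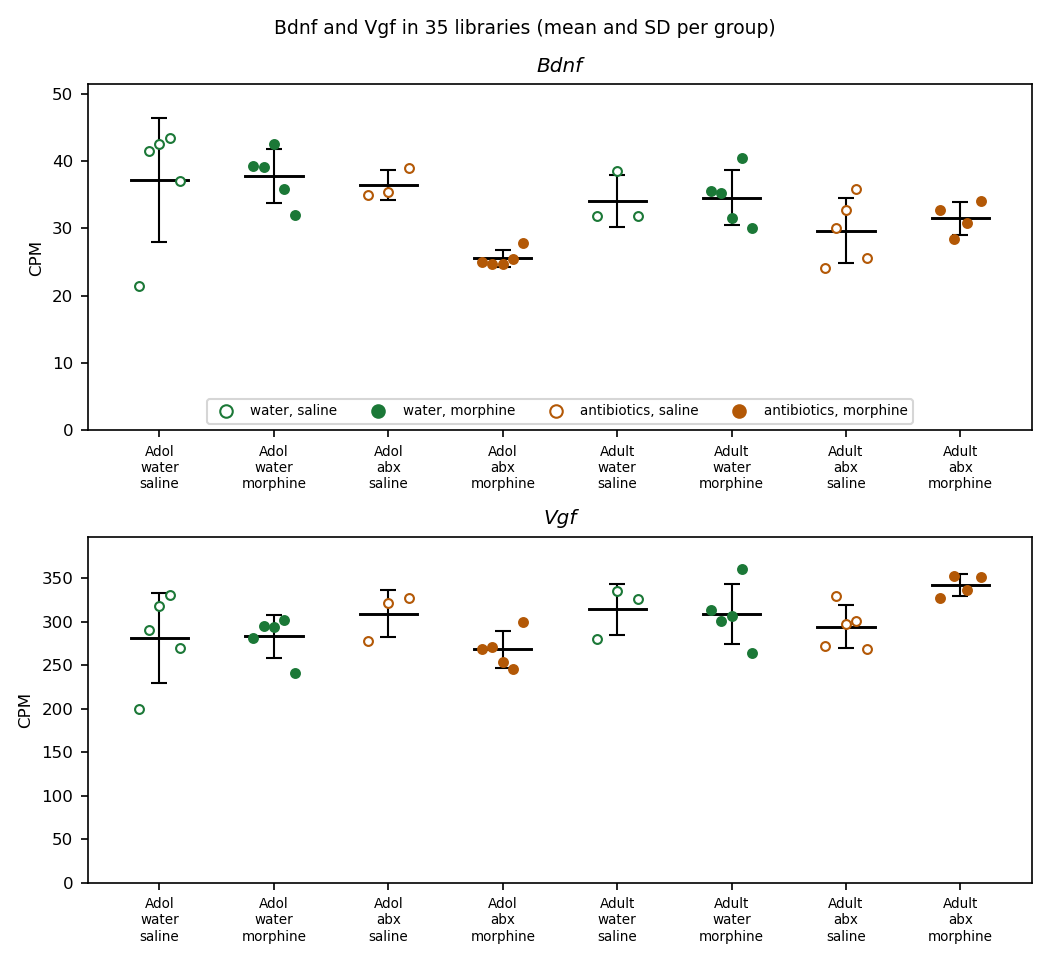
Each point is 1 of the 35 libraries, in CPM on the vertical axis, with the 8 groups on the horizontal axis (Adol, adolescent; abx, antibiotics) and the mean and SD of each group in black. For Bdnf, the 5 morphine-treated adolescents on antibiotics lie between 24.8 and 27.8 CPM, below all morphine-treated adolescents on water. For Vgf, the 4 morphine-treated adults on antibiotics lie between 327 and 352 CPM.

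Averaged over both ages and both injections, Bdnf was lower on antibiotics than on water, with a log2 fold change of -0.23 ± 0.07 (SE) and an adjusted p of 0.0383 by edgeR. It was 1 of 7 members called lower, against 5.05% of all genes called lower and 10.2% called in either direction. In the 4 strata, the log2 differences were -0.02 and -0.56 in adolescents with saline and morphine, and -0.20 and -0.13 in adults. This call also moved with single libraries: 20 of 35 leave-one-out fits called it. In the other 15, the adjusted p was 0.0514 to 0.0931. Those were the fits without adolescent water saline 2, 3 or 4, adolescent water morphine 1 or 3, adult water saline 3, adult water morphine 2 or 4, adolescent antibiotics saline 1 or 2, adolescent antibiotics morphine 1, adult antibiotics saline 1 or 5, or adult antibiotics morphine 2 or 3. Without adolescent water saline 1 the adjusted p was 0.000261, and without the 7 libraries with islet counts the log2 fold change was -0.21 with an adjusted p of 0.183. With no filter on low counts it was 0.105. Markers of other cell types moved in the same comparison. Of 5 microglial markers, 3 were lower on antibiotics, with a median of -0.18 on the log2 scale and summed levels of 150 to 216 CPM against 180 to 251 on water. Of 5 astrocyte markers, 2 were lower, with a median of -0.14 and sums of 624 to 861 against 741 to 1066 CPM. Of 5 markers of excitatory cortical neurons, 1 was higher, with a median of 0.00 and sums of 5228 to 6463 against 3773 to 6757 CPM. The other 10 marker lists had 0 calls, with medians of -0.24 (striatal neurons) to 0.45 (choroid plexus, 1 tested gene). The part of these shifts in the result was not tested.

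Morphine averaged over the 4 strata gave 0 calls among the 7 members in edgeR and in DESeq2, and 0 at an unadjusted p under 0.05, against 0.316% of all genes called in edgeR. The averaged morphine difference of Bdnf was -0.09 ± 0.07 (SE) on the log2 scale, with an adjusted p of 0.674 by edgeR. The interactions of age with morphine (0.00517% of all genes called), of age with antibiotics (0%), of antibiotics with morphine in adults (0.00517%) and of all 3 factors (0.0259%) called 0 of 7 members in edgeR, and DESeq2 called 0 too. At an unadjusted p under 0.05 they had 2, 0, 0 and 2 members. For Bdnf the 3-factor interaction was 0.62 ± 0.29 (SE) on the log2 scale, with an unadjusted p of 0.0392 and an adjusted p of 0.996 by edgeR. That estimate includes adolescent water saline 1, the lowest library for Bdnf in its group. By group mean, Bdnf fell in the order adolescent water morphine (37.8 CPM), adolescent water saline (37.2), adolescent antibiotics saline (36.5), adult water morphine (34.6), adult water saline (34.1), adult antibiotics morphine (31.5), adult antibiotics saline (29.7) and adolescent antibiotics morphine (25.6). The highest mean was 1.48 times the lowest, and no 2 neighbours in that order differed by more than the larger of their SDs.

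Ntf3, which encodes neurotrophin-3, the ligand of TrkC, was read from 3 to 53 counts per library. Its highest group mean was that of adolescents on water with saline, at 1.34 CPM ± 0.482 (SD, n = 5), with a range of 0.678 to 1.82, while the highest single value was 1.95 CPM in adult antibiotics saline 5. Adolescents on water with morphine had 0.626 CPM ± 0.235 (SD, n = 5), with a range of 0.327 to 0.83 that overlapped the saline range. The log2 fold change was -1.07 ± 0.38 (SE), with an unadjusted p of 0.00747 and an adjusted p of 0.212 by edgeR. Ntf3 passed in none of the 20 comparisons, and its other group means were 0.53 to 0.919 CPM.

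Ntrk3, which encodes TrkC, was higher in adults than in adolescents when averaged over the 4 treatments. The log2 fold change was 0.12 ± 0.04 (SE), with an adjusted p of 0.0159 by edgeR, and Ntrk3 passed in all 35 leave-one-out fits. Ntrk3 was 1 of 7 members called higher, against 9.11% of all genes called higher and 20.3% called in either direction. The adjusted p was 0.0682 without the 7 libraries with islet counts, with a log2 fold change of 0.13.

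Cell type markers differed between the ages as well. In adults, 3 of 5 microglial markers were lower, with a median of -0.13 on the log2 scale and summed levels of 150 to 203 CPM against 169 to 251 in adolescents. Of 3 oligodendrocyte precursor markers, 2 were lower, with a median of -0.15 and sums of 96.8 to 121 against 118 to 228 CPM. All 4 islet genes were lower in adults, where they summed to 0 to 0.364 CPM against 0 to 51.1. In each of the excitatory neuron, astrocyte, endothelial and thalamic lists, 1 marker was lower, and 1 of 5 inhibitory neuron markers was higher, with list medians of -0.12 to 0.12. The other lists had 0 calls. Mature oligodendrocytes had a median of -0.61, with sums of 1551 to 5498 CPM in adults against 1153 to 18572. By stratum that median was -1.39 (water saline), -0.57 (water morphine), 0.03 (antibiotics saline) and -0.71 (antibiotics morphine). Striatal neurons had a median of -0.45, cholinergic neurons -0.33, meningeal fibroblasts 0.09 and choroid plexus 0.48 from 1 tested gene. The 18572 CPM is from adolescent water saline 1. The part of these shifts in the age results of Ntrk3 and of the lists below was not tested.

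By group, adults had 182, 190 and 183 CPM of Ntrk3 on water with saline, and 170, 192, 187, 196 and 181 on water with morphine. Adults on antibiotics had 158, 203, 186, 174 and 171 CPM with saline and 157, 211, 166 and 194 with morphine. Adolescents on water had 149, 185, 185, 177 and 175 CPM with saline and 175, 176, 169, 153 and 176 with morphine. On antibiotics, adolescents had 168, 162 and 154 CPM with saline and 164, 173, 176, 148 and 168 with morphine. The ages overlapped in each of the 4 treatments, with the 149 CPM again from adolescent water saline 1. The age difference on the log2 scale was 0.09, 0.13, 0.15 and 0.13 in the water saline, water morphine, antibiotics saline and antibiotics morphine strata, with adjusted p values of 0.374 to 0.562 by edgeR. edgeR called 0 of 7 members in each of those strata, against 3.39%, 0.626%, 1.39% and 1.87% of all genes in the same order. At an unadjusted p under 0.05 there were 2, 1, 0 and 4 members, and DESeq2 called 0, 1, 0 and 1.

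Ntrk2, which encodes TrkB, was the steadiest of the 7 genes, with 565 to 684 CPM over all 35 libraries and a coefficient of variation of 4.63%. Its group means ran from 607 CPM ± 27.4 (SD, n = 5) in adolescents on water with morphine to 660 ± 18.8 (SD, n = 5) in adults on water with morphine. Between those 2 groups the log2 age difference was 0.12 ± 0.04 (SE) with an adjusted p of 0.184 by edgeR, while DESeq2 gave 0.0498. In the age by morphine interaction, Ntrk2 had 0.13 ± 0.04 (SE) on the log2 scale, with an unadjusted p of 0.00493 and an adjusted p of 0.632. For the comparison in which Bdnf was lower, morphine-treated adolescents on antibiotics against water, the Ntrk2 difference was 0.01 ± 0.04 (SE), with 610 CPM ± 12.4 against 607 ± 27.4 (SD, n = 5 in each).

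Ngfr, which encodes the p75 receptor, had 0.236 to 2.59 CPM from 4 to 46 counts per library. Group means ran from 0.618 CPM ± 0.342 (SD, n = 5) in adolescents on water with saline to 1.18 ± 0.948 (SD, n = 4) in adults on antibiotics with morphine. The highest value, 2.59 CPM, came from adult antibiotics morphine 1, while the other 3 libraries of that group had 0.582 to 0.8. Averaged over treatments, the log2 age difference was 0.40 ± 0.21 (SE) with an adjusted p of 0.18 by edgeR, and it was 0.21 without adult antibiotics morphine 1.

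Sort1, which encodes sortilin, a sorting receptor that binds neurotrophin precursors together with p75, had group means of 540 to 607 CPM. Its highest group was adults on water with saline, at 607 CPM ± 27 (SD, n = 3), and its lowest was adolescents on water with saline, at 540 ± 62.7 (SD, n = 5), which holds the library with 432 CPM that stood apart. The log2 age difference between those groups was 0.17 ± 0.08 (SE), with an adjusted p of 0.211 by edgeR. Sort1 passed in none of the 20 comparisons in that fit.

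**Figure D2:**
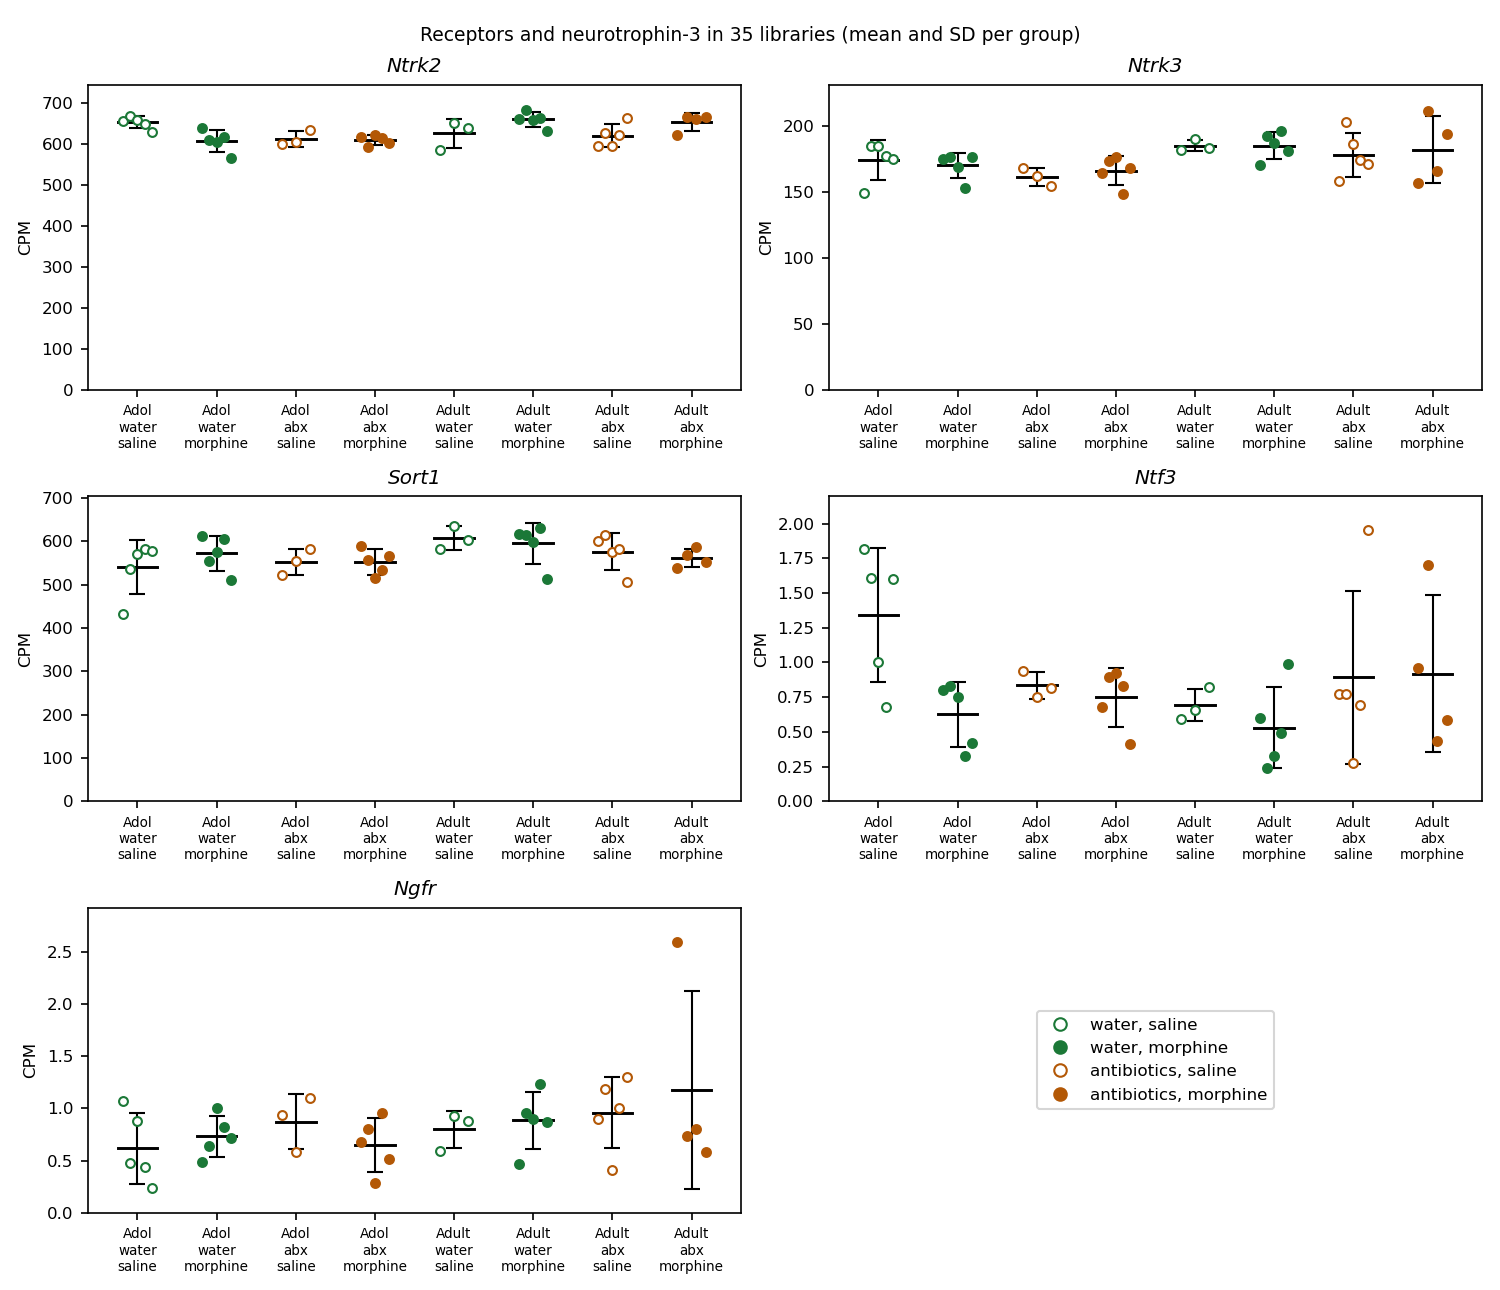
Each point is 1 of the 35 libraries, in CPM on the vertical axis, with the mean and SD of each of the 8 groups in black (Adol, adolescent; abx, antibiotics). Ntrk2 stays within 565 to 684 CPM, while Ntf3 and Ngfr lie below 3 CPM with wide spread, and 1 adult library on antibiotics with morphine has 2.59 CPM of Ngfr.

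Vgf encodes a neuronal secreted precursor that is induced by neurotrophins. It was higher in morphine-treated adults than in morphine-treated adolescents when both were on antibiotics, without overlap between the groups. The adults had 327, 352, 336 and 351 CPM and the adolescents 268, 271, 253, 246 and 300 CPM. The means were 342 ± 12.3 (SD, n = 4) and 268 ± 20.9 (SD, n = 5), and the log2 age difference was 0.35 ± 0.10 (SE). It missed the threshold over all genes, with an unadjusted p of 0.0014 and an adjusted p of 0.0609 by edgeR. The adjusted p was 0.0208 in DESeq2, 0.0107 in edgeR without adolescent water saline 1, 0.0307 with the replicate block and 0.00208 with only these 2 groups fitted. Against these, it was 0.53 without the 7 libraries with islet counts, 0.217 with no filter on low counts, and 0.0733 to 0.16 in the 9 leave-one-out fits, of which 0 called it. Bdnf did not overlap between the same 2 groups either, at 28.5 to 34.1 CPM in adults against 24.8 to 27.8 in adolescents. Its log2 age difference was 0.30 ± 0.14 (SE), with an adjusted p of 0.283 by edgeR over all groups and 0.0227 with only the 2 groups fitted. It was 0.718 without the libraries with islet counts and 0.286 to 0.488 in the 9 leave-one-out fits. Of all genes, 6.97% had no overlap between these 2 groups. Of the 84 gene and 2-group combinations of the 7 members, 4 did not overlap, 3 of Bdnf and 1 of Vgf, and all 4 involve the morphine-treated adolescents on antibiotics, so they share those 5 libraries. Over all genes, 5.99% of such combinations did not overlap, so the members did not stand above all genes in this count. That share was 12%, 3.23% and 11.4% for age on water with saline, on water with morphine and on antibiotics with saline. It was 1.39%, 3.51% and 2.22% for morphine in adolescents on water, adults on water and adults on antibiotics. For antibiotics it was 5.37%, 7.38% and 5.56% in saline-treated adolescents, saline-treated adults and morphine-treated adults, and in these 9 comparisons 0 of 7 members lacked overlap.

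The remaining Vgf groups overlapped. Adolescents on water had 200, 290, 318, 331 and 270 CPM with saline, where the 200 CPM is adolescent water saline 1, and 281, 295, 294, 302 and 241 with morphine. Adolescents on antibiotics with saline had 278, 321 and 327 CPM. Averaged over the 4 treatments, the log2 age difference of Vgf was 0.14 ± 0.05 (SE) with an adjusted p of 0.0519 by edgeR, just above the threshold, and 10 of 35 leave-one-out fits called it higher in adults, with an adjusted p of 0.027 to 0.0465. In those 10, the library left out was adolescent water saline 1, 3 or 4, adolescent water morphine 4, adult water saline 1, adult water morphine 5, adolescent antibiotics morphine 5, adult antibiotics saline 1 or 5, or adult antibiotics morphine 1. Without the 7 libraries with islet counts the adjusted p was 0.399, with a log2 age difference of 0.08. The antibiotics difference of Vgf in morphine-treated adolescents was -0.08 ± 0.09 (SE), with an adjusted p of 0.816, beside the -0.56 of Bdnf.

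**Figure D3:**
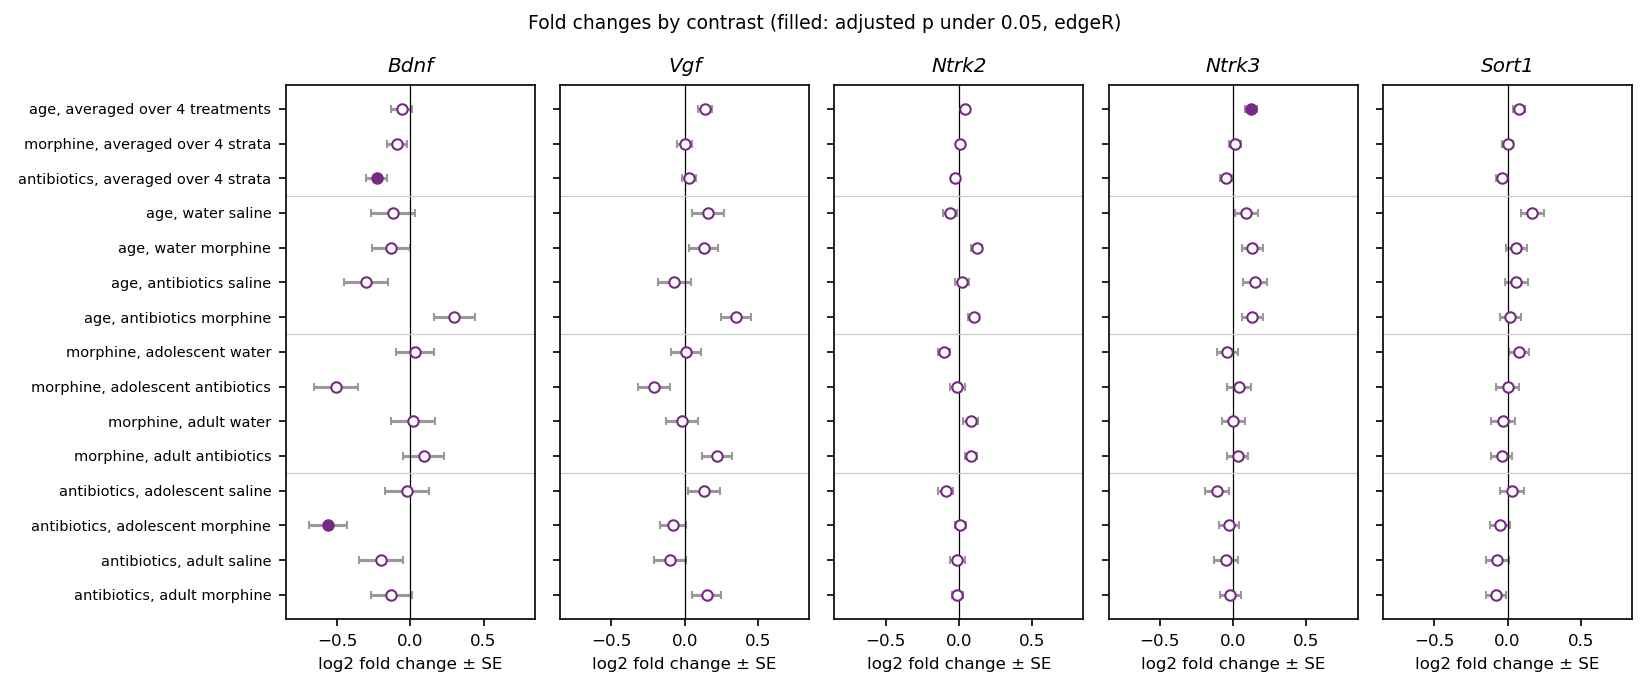
Points are log2 fold changes with SE on the horizontal axis, for 5 of the 7 genes, in the 3 averaged comparisons and the 12 comparisons of 2 groups listed on the vertical axis; age is adult minus adolescent, and filled points have an adjusted p under 0.05 by edgeR. The filled points are Bdnf in the averaged antibiotics comparison (-0.23) and in morphine-treated adolescents (-0.56), and Ntrk3 in the averaged age comparison (0.12).

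Other genes of the pathway were taken from 6 lists that were chosen with earlier results of these data known. Averaged over treatments, age was the comparison with the most calls, with 9.11% of all genes higher in adults and 11.2% lower, and the counts of the lists stand beside those shares. Of 7 tested genes for other neurotrophins and their receptors, 2 were higher in adults, Sorl1, a sorting receptor related to sortilin, by 0.18 on the log2 scale and Kidins220, a Trk-associated scaffold, by 0.14, and Lingo1, a partner of the Nogo receptor, fell by 0.18, with adjusted p values of 0.00354, 0.000327 and 0.0161 by edgeR. The median over the list was -0.03, against 0.00 over all genes. Of 10 tested genes for precursor processing and granules, 3 were lower in adults: Cpe, the carboxypeptidase E that also sorts granule cargo, at -0.14, and the granins Scg2 at -0.11 and Chga at -0.13, with a list median of -0.01.

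Further down the pathway, 3 of 24 adaptors and kinases were higher in adults, a share near the 9.11% of all genes, Frs2 (0.07), Sos1 (0.09) and Sos2 (0.10), which link Trk receptors to Ras, and Bex3, a p75-associated protein, was lower at -0.15. Of 11 regulators of Bdnf transcription, the E-box factors Usf1 (-0.10) and Usf2 (-0.11) were lower in adults. Of 6 feedback inhibitors of MAP kinase signalling, Dusp4, a MAP kinase phosphatase, was higher at 0.30. Among 16 immediate early genes, which neurons switch on within minutes of activity, Fosb was higher at 0.39, and Nr4a3 (-0.28) and Nptx2 (-0.21) were lower. Without the 7 libraries with islet counts, the granule list had 3 members lower. There the feedback list had 0 higher and 1 lower, and the adaptors 2 higher and 3 lower. The share of all genes called in that refit is not given here, so these counts have no share beside them.

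In the averaged antibiotics comparison, 5.16% of all genes were called higher and 5.05% lower. There, 2 of the 7 other neurotrophin and receptor genes were lower, Sorcs2, a receptor of the sortilin family, at -0.15 and Kidins220 at -0.08, with adjusted p values of 0.00714 and 0.0469 by edgeR. Of the 24 adaptors and kinases, 4 were higher, among them Rapgef1 (0.14), an exchange factor for Rap1, and Frs3 (0.19), and Shc3, a Trk adaptor of neurons, was lower at -0.19. Mef2d, an activity-dependent transcription factor, was higher at 0.09 among the 11 regulators of Bdnf transcription. The granule genes, feedback inhibitors and immediate early genes had 0 calls in edgeR, with 4, 2 and 1 genes at an unadjusted p under 0.05, and DESeq2 called 1 feedback inhibitor lower. Without the 7 libraries with islet counts, 1 receptor gene was lower and the adaptors had 1 gene higher and 1 lower. The averaged morphine comparison had 0 calls in all 6 lists in edgeR, with 0 to 3 genes of a list at an unadjusted p under 0.05, while DESeq2 called 1 immediate early gene lower. For these 2 averaged comparisons, the shares of all genes called in DESeq2 and without the 7 libraries are not given here.

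In morphine-treated adolescents, antibiotics against water, 3 of 6 feedback inhibitors of MAP kinase signalling were lower, as was Bdnf, against 0.626% of all genes. They were Spry4, a Sprouty protein that restrains Ras signalling, and Dusp6 and Dusp5, phosphatases that act on ERK; these and the immediate early genes below were named after their values were seen. Spry4 was at 10.9 CPM ± 0.76 on antibiotics against 19.3 ± 2.4 on water (SD, n = 5 in each), a log2 fold change of -0.82 with an adjusted p of 0.000512 by edgeR. Dusp6 was at 49.2 CPM ± 3.88 against 78.3 ± 2.92 (SD, n = 5 in each), a log2 fold change of -0.67 with an adjusted p of 0.0135. Dusp5 had a log2 fold change of -0.59 and an adjusted p of 0.0344. The 2 groups did not overlap for Spry4 or Dusp6, and they overlapped for Dusp5, at 7.55 to 10.8 and 10.4 to 15.8 CPM. All 6 list members had negative fold changes, with a median of -0.52 against 0.00 over all genes. Saline-treated adolescents on water had 14 CPM ± 2.95 of Spry4, 66.3 ± 19.3 of Dusp6 and 8.94 ± 2.52 of Dusp5 (SD, n = 5). On antibiotics with saline these were 18.1 ± 0.659, 79.8 ± 13.6 and 13.9 ± 1.14 (SD, n = 3). For Dusp5, morphine-treated adolescents on antibiotics had a mean of 8.9 CPM, near that of saline on water. In adolescents, the list median for morphine against saline was 0.34 on water and -0.42 on antibiotics. In that list, 1 of 6 genes was called lower for morphine on antibiotics (0.0466% of all genes in either direction). In the adolescent interaction of antibiotics with morphine, 2 of 6 were lower (0.0621%). The water saline group includes adolescent water saline 1, and Dusp6 ranged from 36.1 to 89.1 CPM in that group. The part of that library in these values was not tested.

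Of the 16 immediate early genes, 2 were lower for antibiotics against water in morphine-treated adolescents, where 0.626% of all genes were. They were Fosb at -0.51 and Nr4a1 at -0.72, each with an adjusted p of 0.0464 by edgeR. The list median was -0.51. Arc, a synaptic immediate early gene, had the largest difference of that list, at -1.53 ± 0.41 (SE), and did not pass, with an adjusted p of 0.0616. The lists of other neurotrophins and receptors, granule genes, Trk adaptors and regulators of Bdnf transcription had 0 calls in edgeR and in DESeq2, with medians of -0.04 to 0.03. At an unadjusted p under 0.05 they had 0, 1, 3 and 0 genes. Leaving out 1 library at a time gave 2 to 4 feedback inhibitors and 0 to 1 immediate early genes lower. The single immediate early gene was called without water morphine 1, and all of the other 9 fits called 0. Without the 7 libraries with islet counts, 0 genes of either list were called, with medians of -0.37 and -0.23. For age on antibiotics with morphine, 3 of the 16 immediate early genes were higher in adults, against 1.87% of all genes called in either direction. That comparison uses the same adolescent libraries on antibiotics with morphine. In morphine-treated adolescents, antibiotics against water, 1 of 5 microglial markers was lower. Their summed levels were 169 to 196 CPM on antibiotics and 180 to 214 on water. The other 12 marker lists had 0 calls, with medians of -0.24 (meningeal fibroblasts) to 0.82 (pancreatic islet). The part of these markers in the result was not tested.

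**Figure D4:**
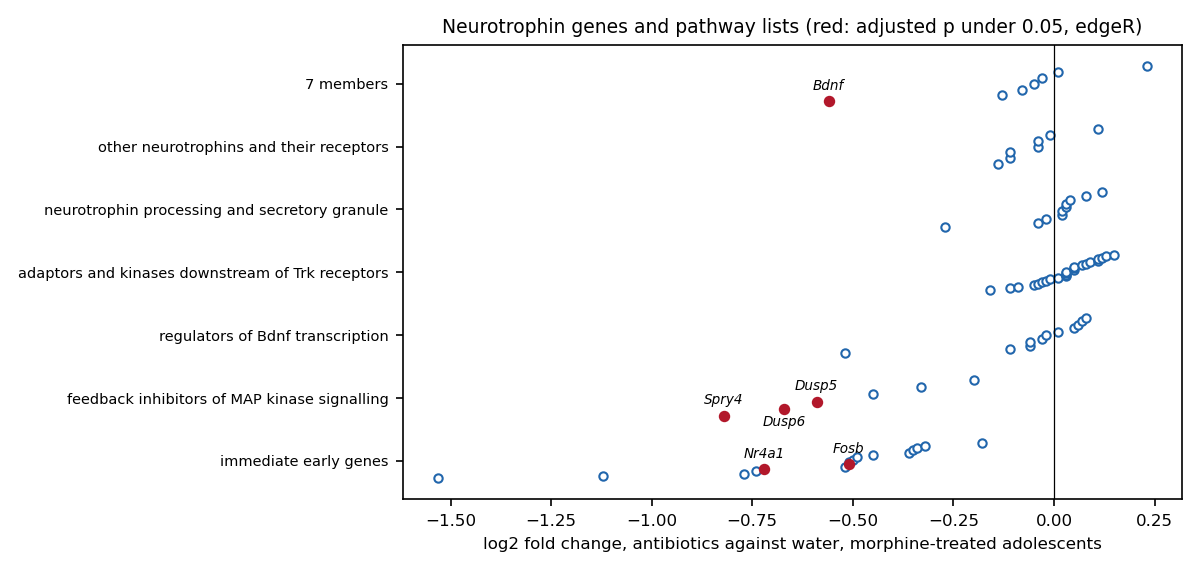
Each point is 1 gene, placed by its log2 fold change for antibiotics against water in morphine-treated adolescents, in 7 rows for the neurotrophin genes and the 6 pathway lists; red points have an adjusted p under 0.05 by edgeR. Bdnf lies at -0.56 apart from the other 6 neurotrophin genes, beside Spry4 (-0.82), Dusp6 (-0.67) and Dusp5 (-0.59).

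The members were then compared over deviations of log2 CPM from the mean of each group, which asks whether they vary together between libraries of 1 group. Over 35 libraries, Bdnf and Vgf had a Pearson r of 0.82 (permutation p = 0.00001, the smallest the permutations can give; adjusted over 21 pairs, 0.00021) and a Spearman rho of 0.69 (permutation p = 7e-05, adjusted 0.00147). Vgf and Sort1 had an r of 0.81 (permutation p = 4e-05, adjusted 0.00042) and a rho of 0.63 (permutation p = 0.00067, adjusted 0.00703). Bdnf and Sort1 had an r of 0.68 (permutation p = 0.00447, adjusted 0.0313) and a rho of 0.48 (permutation p = 0.0136, adjusted 0.0949). The tests were two-sided.

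Adolescent water saline 1 is the lowest library for all 3 of these genes within its group and lies far from the others. Without it, the r was 0.67 for Bdnf and Vgf, 0.69 for Vgf and Sort1, and 0.43 for Bdnf and Sort1. With the 2 libraries farthest from the median left out, r was 0.71, 0.68 and 0.58. Bdnf and Ntrk2, the gene of its receptor, had an r of 0.16 (permutation p = 0.361, adjusted 0.473). Of the 21 pairs, 3 passed for r and 2 for rho. Adolescent water saline 1 also stood apart in its markers, and the part of tissue composition in the correlations was not tested.

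**Figure D5:**
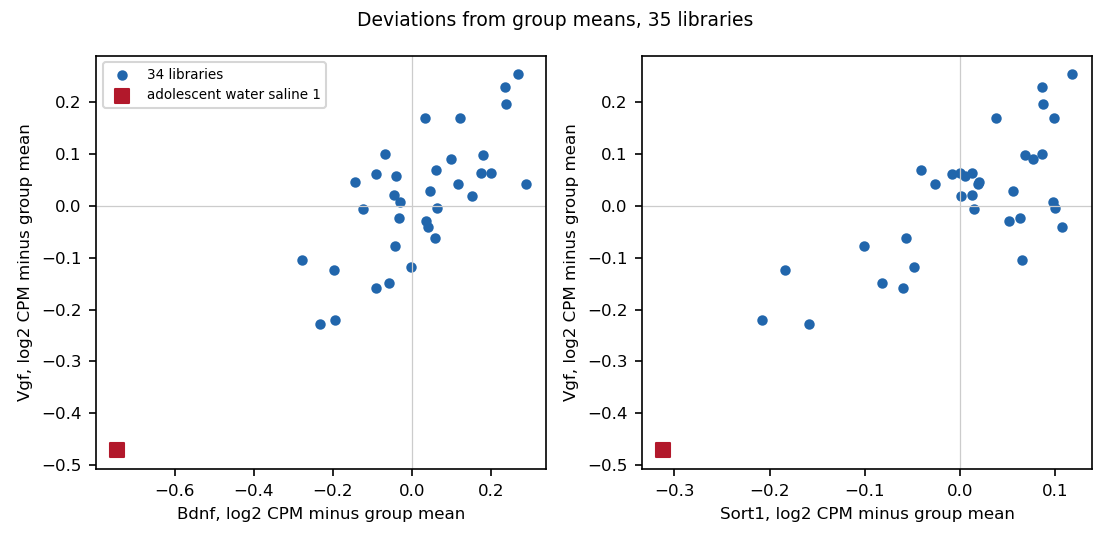
Each point is 1 of 35 libraries, placed by its deviation from the group mean in log2 CPM, with Vgf on the vertical axes and Bdnf (left) or Sort1 (right) on the horizontal axes. The red square is adolescent water saline 1; without it r is 0.67 on the left and 0.69 on the right.

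Among all tested genes with an established symbol, those whose log2 CPM over the 35 libraries was most like that of Bdnf were Dusp6 (r of 0.84), Adcyap1 (0.83), which encodes the neuropeptide PACAP, and Hdac9 (0.80). Over deviations from the group means these were 0.77, 0.83 and 0.76, and Nwd2 had the highest value, 0.86. For Vgf the nearest were Spred3 (0.84), Arhgef17 (0.83) and Rilpl1 (0.81), with Nrxn2 highest over deviations (0.89). For Sort1 they were Prkca (0.94), Slc12a5 (0.93) and Herc3 (0.92), with Prkca highest over deviations too (0.95). For Ntrk2 they were Trim2 (0.77), Sesn3 (0.74) and Scn3b (0.70), with Marcksl1 over deviations (0.73), and for Ntrk3 they were Macf1 (0.82), Tenm4 (0.81) and Pclo (0.80), with Pcdh15 over deviations (0.91). The low counts of Ntf3 and Ngfr gave lower values, led by Sec24d (0.75), Rftn1 (0.73) and Cotl1 (0.71), with Get4 over deviations (0.70), for Ntf3. For Ngfr these were Fzd2 (0.65), Dhx58os (0.62) and Fut10 (0.61), with Ifngr1 over deviations (0.68). These correlations are descriptions over libraries that differ in depth and tissue makeup. All 35 libraries entered them, adolescent water saline 1 included, and the part of that library in them was not tested.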

How the data were processed

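Per the labels, an RNeasy Mini kit was used for extraction and an abclonal Fast RNA-seq kit for the libraries. The authors deposited raw read counts per gene for 37 libraries. The submitters' processing notes list STAR 2.7.10a, DESeq2 and the mm10 build, and no source used here gives their roles, the strand setting or the annotation release. Symbols came from GENCODE M21, which matched 52073 of 56980 identifiers. Exon lengths and gene positions are from that mm10 annotation. The 2 libraries under 1000000 counts (25165 and 58764) were left out.

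Counts of 35 libraries were fitted with edgeR 4.0.16 in R 4.3.3 (TMM, filterByExpr, 1 mean per group, robust quasi-likelihood F test), with Benjamini-Hochberg adjustment over 19332 genes and a threshold of 0.05, in 20 contrasts. Alternatives used DESeq2 1.42.0 (alone and for size factors), no filter, other sets of libraries and a replicate block. The one without libraries with islet counts was chosen after seeing the data. Correlations used log2 CPM (prior count 2) and 100000 permutations within groups.

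On simulated data, a fold of 1.5 was recovered for 81.5% of changed genes in the averaged age comparison (19033 genes), 64.6% in the comparison of morphine with saline in adolescents on water (19042 genes) and 65.2% in that of antibiotics with water in saline-treated adults (19053 genes). A fold of 1.25 was recovered for 67.7%, 18.2% and 15.4% in the same order, so in the simulation small differences were mostly missed between 2 groups. The simulated libraries held none that stood apart in its markers. Only 64 to 66 genes were changed at each fold, and counts were drawn at the trend of the spread over genes, not at the spread of each gene. The rates therefore need not hold for the real contrasts or for single members. The members and lists were chosen with earlier results of these data known, and part of the list of other neurotrophins and receptors is not reported here. Named genes were the 7 members in every contrast, up to 3 list genes per direction by smallest p in the averaged age contrast and up to 2 in the averaged morphine and antibiotics contrasts, and for each member the 3 genes with the highest r over libraries and the 1 highest over deviations. The list genes named for antibiotics against water in morphine-treated adolescents fall outside that rule and were named after their values were seen.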

Additional observations from a re-analysis of the deposited data

Results flagged for a closer look

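A library was set apart when its gap to the nearest other library of its group exceeded the 95% value of Dixon's test, which 6 of 42 groups of values did, while chance gives about 1 in 20. Bdnf was low in adolescent water saline 1, at 21.5 CPM against 37.1 to 43.5 in the other 4 libraries. Ntrk3 was low in the same library, at 149 CPM against 175 to 185. That library also holds the high striatal and oligodendrocyte marker levels.

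Bdnf was high in adolescent antibiotics morphine 5, at 27.8 CPM against 24.8 to 25.5, which still lies below all morphine-treated adolescents on water. In adult antibiotics morphine 1, Ntrk2 was low at 621 CPM against 660 to 667, and Ngfr was high at 2.59 CPM against 0.582 to 0.8. Sort1 was low in adult water morphine 5, at 513 CPM against 599 to 630.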

How the results depend on the processing

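For age averaged over treatments, 1 member was called, and 2 were called in DESeq2, in edgeR with DESeq2 size factors, with all 37 libraries, with 34 libraries (without adolescent water saline 1) and with the replicate block. Vgf was the added member, and 0 were called in the 28 libraries without islet counts; leave-one-out fits gave 1 to 2. For antibiotics averaged, the 1 call became 0 with no filter on low counts (Bdnf adjusted p of 0.105), with the replicate block (0.0506) and in 28 libraries (0.183), and leave-one-out fits gave 0 to 1. For antibiotics in morphine-treated adolescents, the 1 call became 0 with no filter (adjusted p of 0.0856) and in 28 libraries, and leave-one-out fits gave 0 to 1. Comparisons with 0 calls gained 1 in these settings: age on water with morphine in DESeq2 (Ntrk2); age on antibiotics with morphine in DESeq2, in 34 libraries and with the replicate block (Vgf), and 2 with only the compared groups fitted (Bdnf and Vgf); and morphine in adolescents on antibiotics in 34 libraries and with only the compared groups fitted (Bdnf). The cause was not tested. No called fold change changed sign in any setting. Over all genes, antibiotics against water in morphine-treated adolescents called 93 genes higher and 121 lower, and 140 and 199 in DESeq2, 52 and 69 with no filter, 54 and 86 with 37 libraries, 177 and 213 with 34, 132 and 246 with these groups alone, and 1 and 1 in 28 libraries; the feedback inhibitors lower ranged from 0 to 4 and the immediate early genes from 0 to 6 over these settings. Libraries with the same number did not deviate together as a set (median correlation 0.0055 over 108 pairs, -0.226 to 0.277, and 14 over 0.1), and the main fit did not pair them. The labels do not say what the numbers mean, and a low median cannot exclude something shared by some pairs. Ntf3 and Ngfr rest on 3 to 53 counts per library, which limits what differences in them could be detected.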
